A study of Rattus norvegicus with 8 samples.

Results

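Muscarinic acetylcholine receptors are encoded by 5 genes in the rat, Chrm1 to Chrm5. Their members were taken by gene symbol: all 5 were among the 17168 genes listed in each library, and 4 of them were among the 11631 genes that passed a filter on low counts. Chrm5 did not pass it and is described by its counts, with a test only in a fit without that filter. RNA had been sequenced from medial prefrontal cortex homogenate of male Sprague-Dawley rats, in 4 libraries of high motor impulsivity (HI) and 4 of low motor impulsivity (LI). Impulsivity had been scored as premature responses in the 1-CSRT task, in which a rat must wait for a cue before it responds, and HI and LI rats came from the top and the bottom quartile of that score. No group carried a drug treatment or an altered allele in the labels. No age is given in the labels, and the labels do not say that each library is a separate animal, so p-values measure the spread between these libraries.

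Muscarinic receptors are G protein-coupled receptors for acetylcholine, which reaches the cortex mainly from basal forebrain neurons. The products of Chrm1, Chrm3 and Chrm5 couple to Gq proteins, which activate phospholipase C and close the M-type potassium channel, so that neurons become more excitable. The products of Chrm2 and Chrm4 couple to Gi/o proteins, which inhibit adenylyl cyclase and open inwardly rectifying potassium channels. Chrm1 is the main postsynaptic muscarinic receptor gene of cortical pyramidal neurons, Chrm2 is best known as an inhibitory autoreceptor gene, Chrm4 is abundant in striatal projection neurons, and Chrm5 is best known from midbrain dopamine neurons.

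The annotated promoters of the most abundant Gq-coupled and the most abundant Gi/o-coupled member are shown because their base composition differs. Both windows run from 250 bases before to 50 bases after the start site, 5′ to 3′ on the plus strand, in RefSeq's GRCr8 annotation. Chrm1 lies at chr1:214996109-214996408 and Chrm4 at chr3:98348830-98349129. Capitals mark matches, on either strand, to the GC box (GGGCGG), the CCAAT box (CCAAT), the core of the cyclic AMP response element (TGACG) or the TATA box (TATAAA). Adjacent matches that overlap run together.
Chrm1: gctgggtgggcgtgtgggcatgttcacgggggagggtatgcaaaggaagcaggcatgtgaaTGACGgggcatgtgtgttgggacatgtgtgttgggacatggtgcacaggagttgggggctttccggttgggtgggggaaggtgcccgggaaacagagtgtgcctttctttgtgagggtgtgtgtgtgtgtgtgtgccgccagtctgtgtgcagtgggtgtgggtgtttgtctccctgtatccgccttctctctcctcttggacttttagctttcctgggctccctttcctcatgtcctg
Chrm4: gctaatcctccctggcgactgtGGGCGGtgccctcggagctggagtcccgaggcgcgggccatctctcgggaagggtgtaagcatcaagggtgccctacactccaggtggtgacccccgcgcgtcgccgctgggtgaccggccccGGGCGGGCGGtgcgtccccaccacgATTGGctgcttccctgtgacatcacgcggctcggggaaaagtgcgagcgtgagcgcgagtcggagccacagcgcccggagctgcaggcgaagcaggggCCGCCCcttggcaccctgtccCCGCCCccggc
The Chrm1 window held 7 CpG dinucleotides and an observed-to-expected CpG ratio of 0.318, and the Chrm4 window held 32 and a ratio of 0.823. The median ratio over 9177 promoters of tested genes was 0.763, and 11.2% of these promoters had a lower ratio than Chrm1 and 60.2% a lower ratio than Chrm4. Chrm4 held 5 GC boxes, of which 2 overlap, and 1 CCAAT box. Chrm1 held neither motif and had 1 core of the cyclic AMP response element. Among promoters of tested genes 62.4% held a GC box, 36.9% a CCAAT box, 31.7% such a core and 6.77% a TATA box, which neither window held. The members did not divide by G protein coupling in this respect, since Chrm3 had a ratio of 0.962 with 2 GC boxes and 1 such core, and Chrm2 had a ratio of 0.382 with 1 GC box. The RefSeq table gave a window for these 4 members. A motif match is a description of the letters and not evidence of a bound factor.

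Total counts per library lay between 7354416 and 9476656. Ribosomal RNA (the Rn45s and Rn28s transcripts) took between 0.406% and 25.5% of them, and HI4 and LI3, with the least, stood apart from the other 6 libraries on the first principal component. Excitatory cortical markers were abundant, with Camk2a at 1530 ± 156 CPM (a gene's count relative to the library total, scaled between libraries by TMM) in HI against 1375 ± 128 in LI (SD, n = 4 each). The summed level of 9 striatal projection neuron markers was 949 CPM in LI2 and between 387 and 430 in the other 7 libraries. That of 6 oligodendrocyte markers was between 1943 and 2121 CPM in HI, and 1665, 6348, 3393 and 2538 CPM in LI1 to LI4. In LI2, LI3 and LI4 it thus lay above every HI library. The 6 microglial markers summed to between 182 and 200 CPM in HI and between 214 and 230 in LI. Cholinergic neuron markers summed to between 9.59 and 20.6 CPM over all libraries. Among them Isl1 and Lhx8 were near the limit of detection, with at most 8 counts in any library. They were at 0 in every HI library, and at 0.445 ± 0.524 and 0.252 ± 0.505 CPM in LI (SD, n = 4). In tissue homogenate, fewer cells of a type and less RNA per cell cannot be told apart.

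Chrm1 was the leading muscarinic transcript in every library once counts were divided by transcript length. Its level was 88.1 ± 10.6 CPM per kilobase in HI against 82.0 ± 5.54 in LI (SD, n = 4 each). Chrm4 followed at 25.97 ± 2.83 and 23.6 ± 5.31 CPM per kilobase, and Chrm3 at 21.5 ± 2.35 and 19.3 ± 2.0. Chrm2 stood at 5.06 ± 0.661 and 3.96 ± 1.61 CPM per kilobase, and Chrm5 at 0.165 ± 0.253 and 0.228 ± 0.192. Over the 8 libraries the ranges of Chrm1 and Chrm4 did not overlap, nor did those of Chrm3 and Chrm2 or of Chrm2 and Chrm5. Chrm4 and Chrm3, neighbours in this order, did not differ beyond their spread: Chrm4 was higher in 6 of 8 libraries and lower in HI1 and LI2.

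The order rests on the transcript models used for counting. The Chrm1 transcript in the tables is 1383 bases long, the shortest of the 5, against 4086 for Chrm3, 2755 for Chrm4, 2457 for Chrm2 and 2351 for Chrm5. By count alone Chrm1 had 7631 reads over the 8 libraries, Chrm3 5581, Chrm4 4552, Chrm2 729 and Chrm5 31. Chrm1 also had the highest count of the 5 in every library, before any division by length. Chrm3 thus exceeded Chrm4 in total count and Chrm4 exceeded Chrm3 per length. At 1383 bases the Chrm1 model has the length of the coding sequence alone, so its level and share per length may not be comparable with those of members whose models hold untranslated regions. The size and direction of any such effect on the order, the shares and the ratio of Gi/o-coupled to Gq-coupled members were not tested.

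Chrm1 made up between 59.6% and 66.5% of the muscarinic signal per length in a library, and Chrm4 between 15.3% and 23.1%. Chrm3 took 13.04% to 18.5%, Chrm2 1.70% to 4.33%, and Chrm5 at most 0.405%. The Gi/o-coupled pair stood at 0.283 ± 0.0172 of the Gq-coupled trio in HI against a ratio of 0.273 ± 0.0709 in LI (SD, n = 4 each). This ratio lay between 0.264 and 0.305 in the HI libraries, and the LI libraries reached from 0.213 in LI2 to 0.374 in LI4, on both sides of HI. The family total was 141 ± 12.98 CPM per kilobase in HI against 129 ± 7.63 in LI, with HI3 highest at 160.1 and LI3 lowest at 118.

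**Figure D1:**
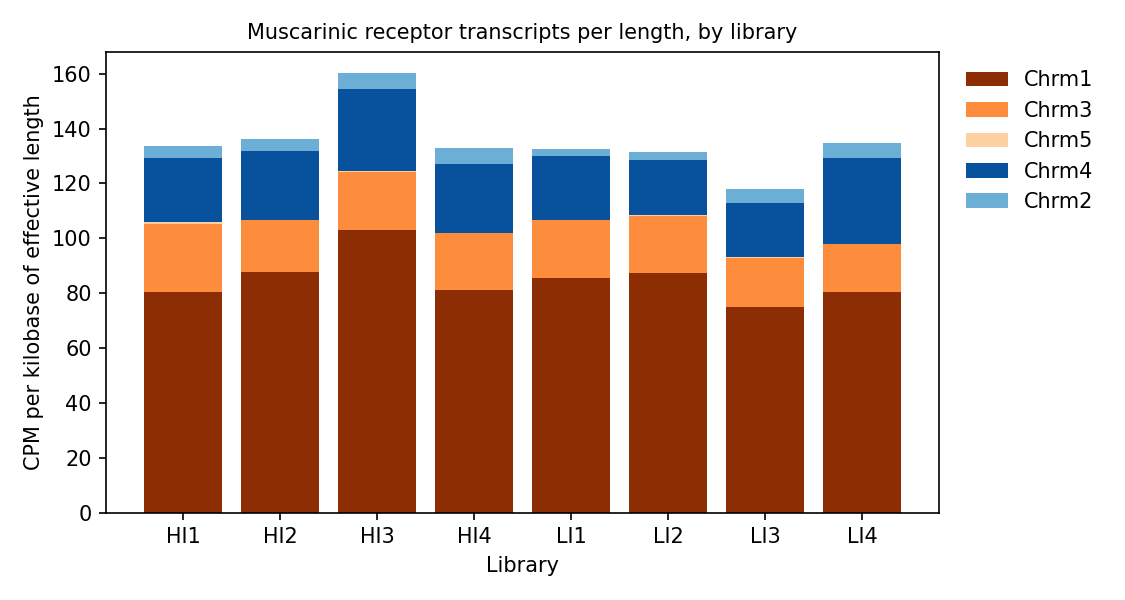
Stacked bars give the TMM-scaled CPM per kilobase of effective length of each muscarinic receptor gene (y axis) in each of the 8 libraries (x axis); orange and brown shades are Gq-coupled members and blue shades Gi/o-coupled members. Chrm1 is the largest segment in all 8 bars, and Chrm5 is barely visible.

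None of the 4 tested muscarinic receptor genes differed between HI and LI by more than the spread between libraries. The 4 tested members all had higher mean levels in HI, by between 0.10 and 0.35 on the log2 scale, and in each of them the 2 groups overlapped. In edgeR's quasi-likelihood test 0 of 4 passed a Benjamini-Hochberg adjusted p of 0.1 (adjusted p = 1.00 for each), as did 0% of all 11631 tested genes, and 0 of 4 had an unadjusted p under 0.05, as 4.16% (484) of all genes had. HI and LI did not overlap in 3.46% of all tested genes. A value above 0 was found in 48.5% of them. The median log2 fold change of the 4 members was 0.15, and that of all tested genes was -0.01.

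Chrm1, the most abundant Gq-coupled member, had 107, 116, 137 and 108 CPM in HI1 to HI4, and 113, 116, 99.4 and 107 CPM in LI1 to LI4. HI3 was the highest library and LI3 the lowest, and the remaining 6 lay within 10 CPM of each other. The means were 117 ± 14.0 CPM in HI against 109 ± 7.35 CPM in LI (SD, n = 4 each). The log2 fold change was 0.10 ± 0.11 (SE), with a 95% interval from -0.15 to 0.36, or 0.901-fold to 1.28-fold. Without HI3 it was 0.02, and without LI3 0.06.

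Chrm3, which also couples to Gq, had 99.7, 77.4, 85.2 and 83.5 CPM in HI1 to HI4, and 86.4, 82.9, 71.1 and 70.8 CPM in LI1 to LI4. HI1 was the highest library, LI3 and LI4 were the lowest pair, and the other 5 lay between 77.4 and 86.4. The means were 86.4 ± 9.45 CPM in HI against 77.8 ± 8.05 CPM in LI (SD, n = 4 each). The log2 fold change was 0.15 ± 0.12 (SE), with a 95% interval from -0.12 to 0.42, or 0.923-fold to 1.34-fold. Without HI1 it was 0.08. HI exceeded LI in 12 of the 16 pairs of libraries for Chrm3, and also for Chrm1, Chrm2 and Chrm4.

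Chrm5, the third Gq-coupled member, was close to the limit of detection. HI1 to HI4 held 12, 1, 1 and 0 reads of it, and LI1 to LI4 held 0, 7, 7 and 3. A count of 0 allows up to 0.399 CPM in HI4 and up to 0.312 CPM in LI1, taking 3 counts as the limit, for counting error only. The means were 0.378 ± 0.579 CPM in HI against 0.523 ± 0.441 CPM in LI (SD, n = 4 each), and HI1 alone held 12 of the 14 HI reads. Without the filter on low counts its log2 fold change was -0.30 ± 1.03 (SE), with a 95% interval from -2.57 to 1.98 (unadjusted p = 0.780, adjusted p = 0.999, edgeR's quasi-likelihood test). A difference was not detectable at this depth and spread. The coefficient of variation was 153% in HI and 84.4% in LI, against about 50.8% from counting error alone.

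Chrm4, the more abundant Gi/o-coupled member, had 63.4, 67.3, 81.0 and 68.5 CPM in HI1 to HI4, and 62.9, 54.3, 53.2 and 84.1 CPM in LI1 to LI4. Among the LI libraries 3 lay below every HI library, but LI4 was the highest of all 8. The means were 70.1 ± 7.64 CPM in HI against 63.6 ± 14.3 CPM in LI (SD, n = 4 each). The log2 fold change was 0.14 ± 0.16 (SE), with a 95% interval from -0.22 to 0.50, or 0.858-fold to 1.41-fold. Without LI4 it was 0.30 (unadjusted p = 0.0582, adjusted p = 1.00, edgeR's quasi-likelihood test). It was 0.06 without HI3, 0.06 without LI3 and 0.07 without LI2. In LI2, where the striatal markers were highest, Chrm4 was among the lowest at 54.3 CPM. LI2 also had the highest oligodendrocyte sum, and the part of either marker set in Chrm4 was not tested.

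Chrm2, the other Gi/o-coupled member, showed the widest spread among the tested members. It had 10.6, 10.9, 13.6 and 13.4 CPM in HI1 to HI4, and 5.41, 7.07, 12.3 and 13.3 CPM in LI1 to LI4. LI1 and LI2 lay below all other libraries, and LI3 and LI4 lay inside the HI range. The means were 12.1 ± 1.59 CPM in HI against 9.51 ± 3.86 CPM in LI (SD, n = 4 each). The log2 fold change was 0.35 ± 0.28 (SE), with a 95% interval from -0.27 to 0.98, or 0.83-fold to 1.97-fold. The counts behind these values were 52 to 128 per library, for which counting error alone gives a coefficient of variation of about 10.5%. The observed coefficient was 13.1% in HI and 40.6% in LI, against medians over all tested genes of 19.4% and 16.5%.

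**Figure D2:**
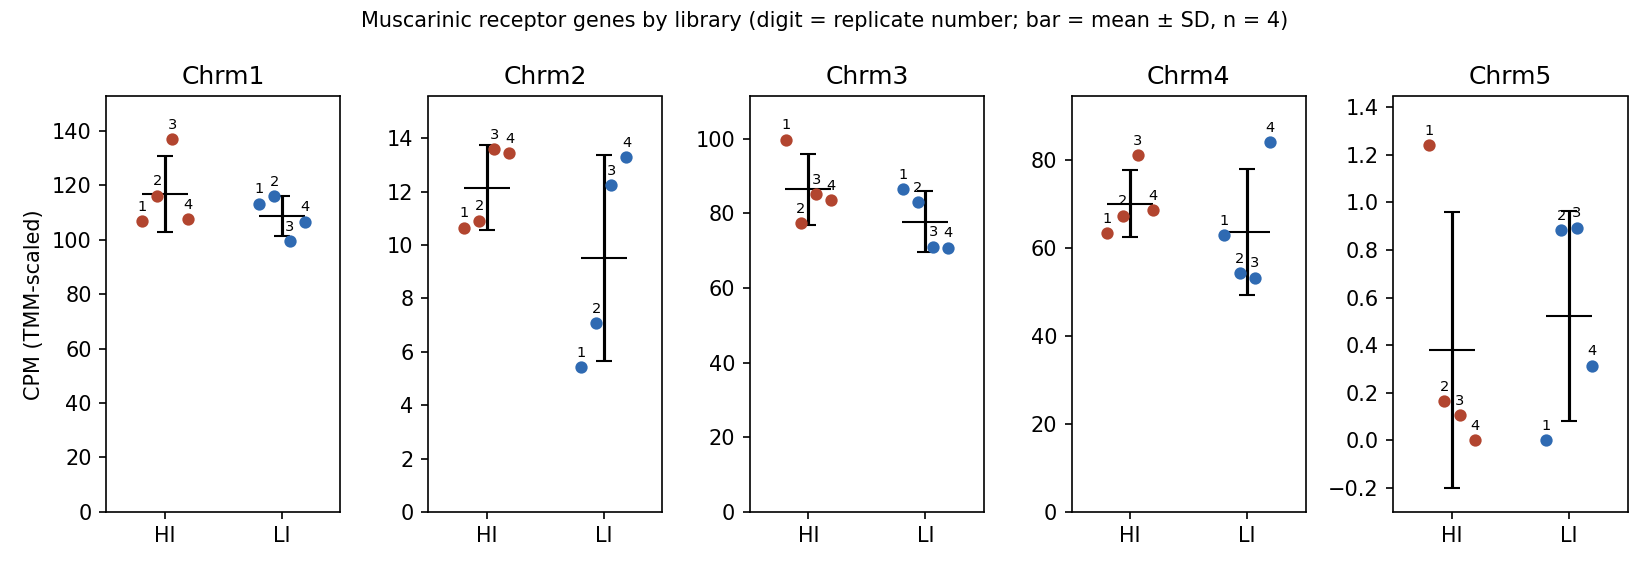
Each point is 1 library's TMM-scaled CPM (y axis, a separate linear scale per gene) in the HI (red) or LI (blue) group, labelled with its replicate number; bars are the mean ± SD, n = 4. The groups overlap in every gene, LI1 and LI2 are the lowest for Chrm2, and LI4 is the highest for Chrm4.

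The Chrm2 values also divided by replicate number, a division that was noticed after the values were seen. The 4 libraries numbered 3 or 4 lay between 12.3 and 13.6 CPM and the 4 numbered 1 or 2 between 5.41 and 10.9 CPM, in HI and LI alike. In 10.1% of all tested genes the libraries numbered 3 or 4 likewise all lay above those numbered 1 or 2. The labels do not say what the numbers stand for. HI exceeded LI in Chrm2 by 0.78 in log2 CPM among libraries numbered 1 or 2 and by 0.08 among those numbered 3 or 4. For Chrm4 these differences were 0.16 and 0.16, for Chrm3 0.05 and 0.25, and for Chrm1 -0.04 and 0.24.

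Ribosomal RNA content moved with this division of Chrm2. It took between 0.406% and 3.96% of counts in the libraries numbered 3 or 4, and between 5.44% and 25.5% in those numbered 1 or 2. With the log2 ribosomal RNA share as a covariate, a fit added after the data were seen, the log2 fold change of Chrm2 was 0.51 (unadjusted p = 0.0463, adjusted p = 0.245, edgeR's quasi-likelihood test). With the share itself in place of its log2, tried first and also after the data were seen, it was 0.48 (unadjusted p = 0.130, adjusted p = 0.705, same test). Without HI4 and LI3 it was 0.45. It was 0.15 without LI1, 0.24 without LI2, 0.50 without LI3 and 0.56 without LI4, so its size depended on which LI library was left out, and its direction did not.

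**Figure D3:**
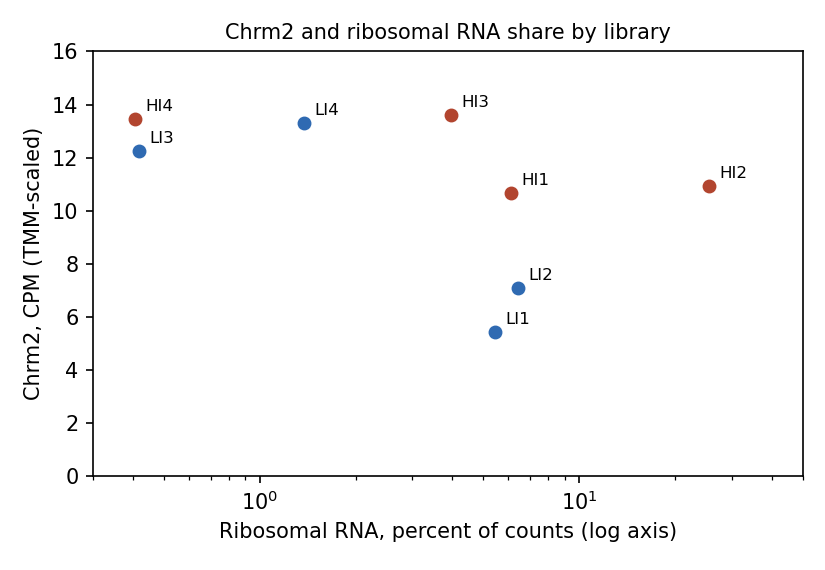
Points are the 8 libraries, with the share of counts from ribosomal RNA in percent on a log x axis and the TMM-scaled CPM of Chrm2 on a linear y axis; HI is red and LI blue. The 4 libraries with the least ribosomal RNA have the highest Chrm2 values, between 12.3 and 13.6 CPM.

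**Figure D4:**
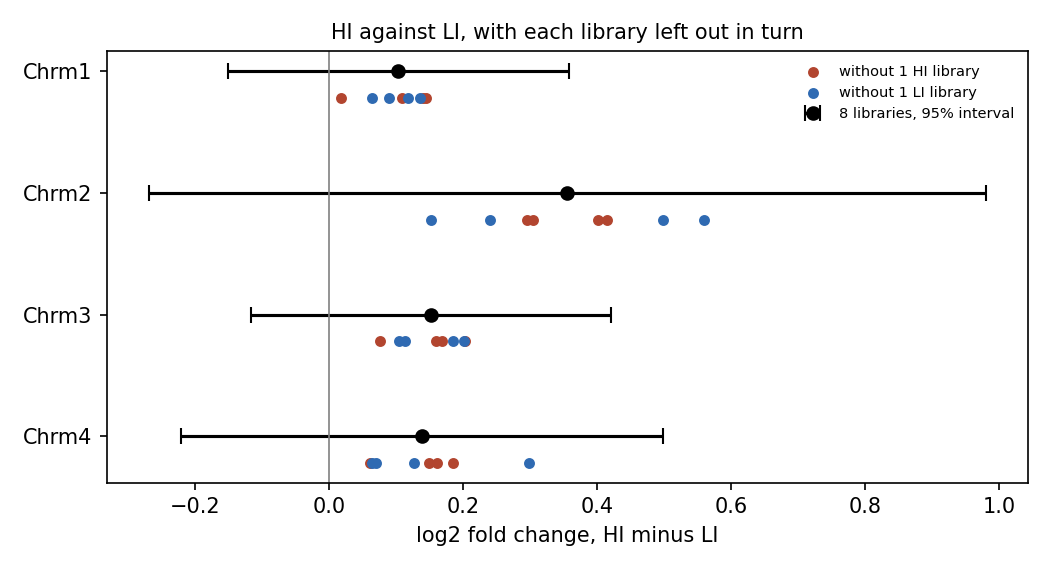
Black points and bars are the log2 fold change of HI against LI (x axis) with its 95% interval for the 4 tested members (y axis); small points are the same value with 1 HI (red) or 1 LI (blue) library left out. Every interval spans 0, and all the small points lie above 0, with those of Chrm2 spread from 0.15 to 0.56.

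The 4 members showed no single shared pattern across libraries. Pearson's r of log2 CPM over the 8 libraries, given as a description because all genes share the same libraries and scaling, ran from -0.31 between Chrm2 and Chrm3 to 0.50 between Chrm2 and Chrm4. For the Gq-coupled pair Chrm1 and Chrm3 it was 0.28, and for Chrm1 and Chrm4 it was 0.44. Among the 11630 other tested genes, ordered by their correlation with a member, Chrm4 stood at place 1481 for Chrm1 and at place 2053 for Chrm2.

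The genes whose values followed each member most closely over the 8 libraries were others, picked as the 3 highest of 11630 correlations and therefore given without a p. For Chrm1 they were Cyth3 (r = 0.94, rho = 0.83), Nos1ap (0.93 and 0.98), an adaptor of neuronal nitric oxide synthase, and Kcnh1 (0.93 and 0.93), an ether-a-go-go potassium channel. For Chrm2 they were Cks1b (0.95 and 0.79), Frmd4a (0.94 and 0.86) and Fosl2 (0.93 and 0.98), an AP-1 transcription factor. For Chrm3 they were Gucy1a3 (0.93 and 0.76), a soluble guanylyl cyclase subunit, Mrvi1 (0.93 and 0.90) and Loxl3 (0.91 and 0.71). For Chrm4 they were Klf10 (0.97 and 0.90), a Krüppel-like transcription factor, Gpr3 (0.94 and 0.93), an orphan receptor, and Yy1 (0.93 and 0.95). Klf10 stood at 54.9 ± 14.5 CPM in HI against 40.1 ± 17.6 CPM in LI (SD, n = 4 each), and like Chrm4 its groups overlapped.

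Genes around the receptors were compared in 6 lists, which give the supply of acetylcholine, its nicotinic receptors, both signalling arms, the channels and the regulators. By edgeR's quasi-likelihood test 0 of the tested genes in any list passed an adjusted p of 0.1, as for 0% of all genes. DESeq2, run as an alternative, called Kcnq3 (adjusted p = 0.0968) and Adrbk2 (adjusted p = 0.0981) among the 4 tested members and the 2 genes of smallest p in each list. It gave no adjusted p to Chrm2, Slc18a3, Colq, Gna14 or Rgs16. Because the lists were chosen with earlier results of these data known, their shares beside all genes are a description and not a test. The lists are described by how many genes had higher or lower values, beside 48.5% higher and a median log2 fold change of -0.01 over all tested genes. HI and LI did not overlap in 2 of 14 genes in the Gq arm, 2 of 13 channels and 2 of 15 regulators. In the Gi/o arm this held for 0 of 15 genes, and for 0 of 8 supply genes and 0 of 6 nicotinic subunits. The share over all tested genes was 3.46%. The genes concerned were named for the smallest p in their list, so their separation follows in part from that choice. An unadjusted p under 0.05, which 4.16% of all tested genes had, was reached by 3 of 14 genes in the Gq arm (Gnaq, Gna14 and Itpr1), 3 of 15 among the receptor kinases and other regulators (Adrbk2, Rgs16 and Arrb1), 2 of 13 channels (Kcnq3 and Trpc5), 1 of 15 in the Gi/o arm (Adcy9), 1 of 8 acetylcholine supply genes (Slc18a3) and 0 of 6 nicotinic subunits.

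Acetylcholine supply and breakdown genes were higher in HI in 3 of 8 by value and lower in 5, at a median log2 fold change of -0.25. Chat, which makes acetylcholine, stood at 7.70 ± 4.37 CPM in HI against 7.58 ± 3.41 CPM in LI, and Ache, which breaks it down, differed by 0.01 ± 0.17 (SE). Slc18a3, the vesicular acetylcholine transporter, had only 4 to 25 counts per library, with 1.45, 0.83, 1.38 and 0.532 CPM in HI1 to HI4, and 2.39, 3.15, 1.28 and 1.57 CPM in LI1 to LI4. LI1 and LI2 were its highest libraries and LI3 lay inside the HI range (log2 fold change -0.95 ± 0.41, SE, unadjusted p = 0.0430, edgeR's quasi-likelihood test). Colq, the collagen tail of acetylcholinesterase, differed by -0.47 ± 0.40, by -0.24 without LI3 and by -0.68 without LI2. Of 11 nicotinic subunit genes 6 were tested, and 5 of them had higher values in HI, with Chrna4 at 0.25 ± 0.16 and Chrna5 at 0.64 ± 0.48. Chrna4 stood at 0.14 without HI4 and 0.38 without HI1. Chrna5 stood at 0.38 without LI1 and 0.40 without HI4, and at 0.83 without LI2 and 0.95 without HI1. Chrna6, Chrna9 and Chrna10 had no count in any library.

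In the Gq and phospholipase C arm 11 of 14 genes were higher by value in HI, and the median log2 fold change over all 14 was 0.13. Gna14, a Gq family alpha subunit, had 6.00, 5.62, 7.75 and 9.72 CPM in HI1 to HI4, and 4.79, 4.16, 4.21 and 3.25 CPM in LI1 to LI4. The lowest HI library exceeded the highest LI library, and its log2 fold change was 0.83 ± 0.24 (SE). Itpr1, the inositol trisphosphate receptor that releases stored calcium, had 1042, 955, 1000 and 1003 CPM in HI1 to HI4, and 873, 909, 755 and 816 CPM in LI1 to LI4. Its groups did not overlap either, with a log2 fold change of 0.25 ± 0.10. Gnaq itself differed by 0.36 ± 0.15 and the phospholipase gene Plcb1 by 0.06 ± 0.18.

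In the Gi/o and adenylyl cyclase arm 12 of 15 genes were higher by value in HI, at a median of 0.12. The alpha subunit genes differed by less than their errors, Gnao1 by 0.14 ± 0.17, Gnai1 by 0.12 ± 0.13 and Gnai2 by -0.05 ± 0.09. Among the cyclases, Adcy9 had 27.8, 33.7, 31.4 and 36.9 CPM in HI1 to HI4, and 20.5, 28.8, 19.3 and 18.5 CPM in LI1 to LI4. LI2 lay inside the HI range and the other 3 LI libraries below it, with a log2 fold change of 0.58 ± 0.17 (SE). Adcy1, a calcium-stimulated cyclase, differed by 0.58 ± 0.28, with LI2 at 282 CPM inside the HI range of 198 to 337. It differed by 0.88 without LI2 and by 0.42 without LI3.

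Among ion channels under muscarinic control 12 of 13 tested genes were higher by value in HI, at a median of 0.21. Kcnq3, a subunit of the M-type channel that Gq-coupled receptors close, had 130, 109, 116 and 116 CPM in HI1 to HI4, and 97.1, 88.5, 93.2 and 79.6 CPM in LI1 to LI4. Kcnq5, which also encodes an M-channel subunit, differed by 0.28 ± 0.16. Trpc5, a receptor-operated cation channel, had 22.1, 18.5, 24.8 and 25.3 CPM in HI1 to HI4, and 17.1, 16.2, 18.3 and 13.8 CPM in LI1 to LI4. HI and LI did not overlap in Kcnq3 or Trpc5, whose log2 fold changes were 0.40 ± 0.11 and 0.48 ± 0.15 (SE). Kcnj3, Kcnj6 and Kcnj9, which encode the potassium channel that Gi/o-coupled receptors open, differed by 0.12 ± 0.12, 0.21 ± 0.18 and 0.06 ± 0.21.

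Receptor kinases, arrestins and regulators of G protein signalling were higher by value in HI in 7 of 15 and lower in 8, at a median of -0.03. Adrbk2, a kinase that phosphorylates active receptors, had 43.3, 50.3, 48.6 and 53.6 CPM in HI1 to HI4 and between 35.4 and 38.9 CPM in the LI libraries, without overlap (0.43 ± 0.11, SE). Rgs16, which speeds the shut-off of Gi and Gq proteins, had 5.10 to 8.27 CPM in HI and 3.44 to 4.08 CPM in LI, also without overlap (0.84 ± 0.23). Arrb1 differed by 0.37 ± 0.16 and Arrb2 by -0.13 ± 0.17. The abundant Rgs4 differed by 0.04 ± 0.18. Marker levels moved beside these lists. Of 6 GABA interneuron markers 5 were lower by value in HI (median log2 fold change -0.21), with sums of 594 to 686 CPM in HI and 673 to 885 CPM in LI. Of 5 pyramidal neuron markers 4 were higher by value in HI (median 0.15), with sums of 2890 to 3516 CPM in HI and 2717 to 3135 CPM in LI. Both sums overlapped between the groups. All 9 striatal projection neuron, all 6 oligodendrocyte and all 6 microglial markers were lower by value in HI (medians -0.61, -0.62 and -0.30). The striatal and oligodendrocyte sums overlapped between the groups, and the microglial sums did not. Of 6 astrocyte markers 3 were higher and 3 lower, and of 5 endothelial markers 4 were higher. The part of all these markers in the values of the receptors and the lists was not tested.

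**Figure D5:**
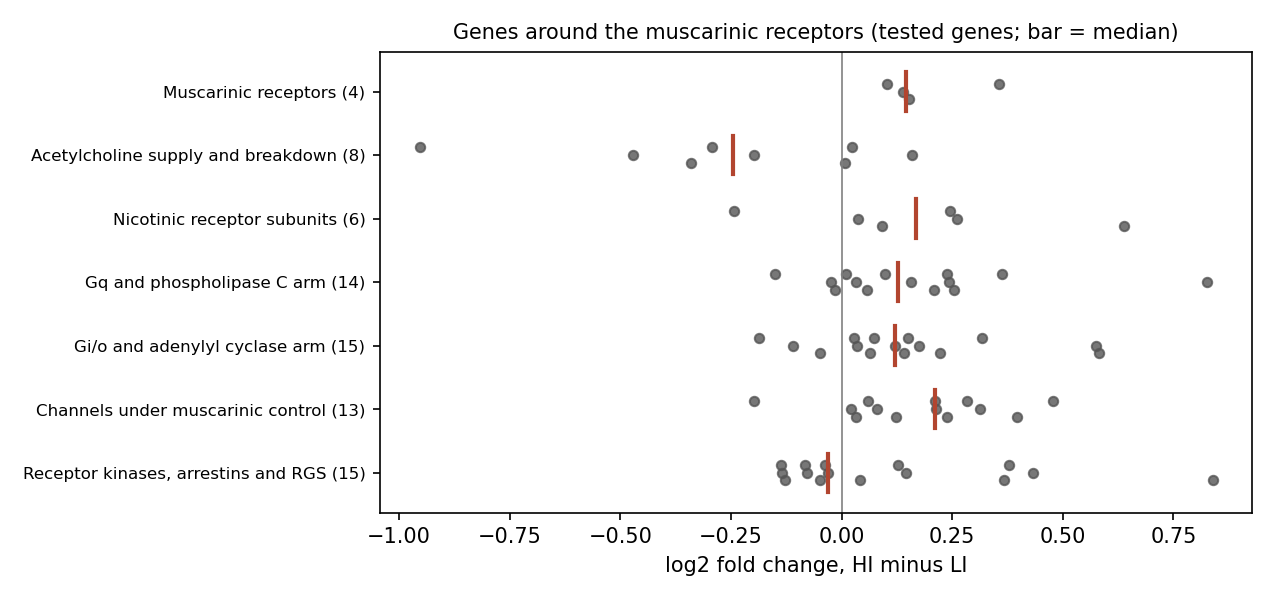
Each point is the log2 fold change of HI against LI (x axis) of 1 tested gene in the muscarinic receptor family or in 1 of the 6 lists (y axis, number tested in brackets); red bars are medians. The receptor median of 0.15 lies beside those of the Gq and Gi/o arms, at 0.13 and 0.12, and the medians of acetylcholine supply and of receptor kinases and regulators lie below 0.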

How the data were processed

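RNA-seq of 8 medial prefrontal cortex libraries was used, 1 table of 17168 genes each. Each deposited table gives, per the file headers, expected counts, TPM, FPKM and transcript lengths. Expected counts are estimated reads that the authors did not normalize, and 10.8% to 11.4% of them per library were not whole. The authors scaled the deposited TPM over all genes, ribosomal RNA included. The deposited FPKM values were not used. The submitters' processing notes name Bowtie2 2.1.0. In the sources used here the quantifier, build, annotation and strand setting are not given.

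Expected counts were rounded, filtered with filterByExpr (minimum count 10, total 15), scaled by TMM and tested HI against LI with edgeR 4.0.16's quasi-likelihood test (R 4.3.3), with Benjamini-Hochberg adjustment over 11631 genes and a threshold of 0.1, the alpha the series states. Its stated Fisher's exact test on counts was an alternative, as were DESeq2 1.42.0, limma 3.58.1 on log2 (TPM + 1 or 0.5), other scalings and filters, and each library left out. SE is the absolute log2 fold change over the square root of F. Log2 CPM used a prior count of 2. Levels per kilobase divide CPM by effective length. The test was checked on simulated counts. No 2 libraries of the same group agreed within sampling noise.

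The members and gene lists were chosen with earlier results of these data known. Named genes are the 5 members, the 2 of smallest p in each list and the 3 most correlated with each member; the other list genes given were named after their values were seen. Promoters are RefSeq's, GRCr8, not the study's annotation. Depth limits Chrm5 most, and its libraries also spread beyond counting error. Chrm2 has the next largest counting error, about 10.5%, but its LI libraries spread by 40.6%, beyond that error. 1 gene of the channel list is included in that list's counts and is not reported here by name.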

Additional observations from a re-analysis of the deposited data

Results flagged for a closer look

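Chrm5 in HI1, at 1.24 CPM, lay far from the other 3 HI libraries, which were between 0 and 0.165 CPM. The gap of 1.08 CPM was 0.867 of the range of the group, above Dixon's 95% critical value for 4 values. The value rests on 12 reads. Chance marks about 1 group in 20 in this way where values are normally distributed, and 10 groups of 4 were examined. Counts this near 0 are not so distributed, so that rate does not hold for Chrm5.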

How the results depend on the processing

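The 4 tested members had higher values in HI under the 24 other settings run, all of which drew on the same 8 libraries. With single libraries left out, the log2 fold change ran from 0.02 to 0.14 for Chrm1, 0.15 to 0.56 for Chrm2, 0.08 to 0.20 for Chrm3 and 0.06 to 0.30 for Chrm4. Under the other settings it ran from 0.006 to 0.10 for Chrm1 and from 0.26 to 0.51 for Chrm2. For Chrm3 it ran from 0.07 to 0.17, and for Chrm4 from 0.02 to 0.17. The lowest of these values came from Fisher's exact test on summed counts for each member. Chrm2 passed the threshold only in Fisher's exact test on summed counts (0.26, adjusted p = 0.0335), which ignores the spread between libraries, and DESeq2 gave it no adjusted p. The HI minus LI difference of Chrm5, -0.145 CPM, ran from -0.431 to -0.0190 with single libraries left out. The full order of levels held in 6 of 8 libraries, by TPM and by full transcript length too, and in 5 or 6 of 7 with 1 left out. Over all genes edgeR called 0, and 0 with each library left out; DESeq2 called 38, edgeR's exact test 1, Fisher's test 6596, and edgeR with log2 ribosomal RNA share as covariate, added after seeing the data, 440 (Kcnq3, Trpc5, Adrbk2, Rgs16, Gna14 and Adcy9 among them); the cause was not tested. With the untransformed share as covariate, tried before the log2 form and also after seeing the data, edgeR called 0 genes, with 828 at an unadjusted p under 0.05. Same-numbered libraries deviated together with r from -0.05 to 0.54 and not every library correlated best with its own number, so the numbers were not taken as pairs; a replicate block called 0 genes and gave 0.42 for Chrm2 (p = 0.0772, edgeR's quasi-likelihood test).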
